A study of Danio rerio with 8 samples.

Results

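The SoxB1 and SoxC genes of the zebrafish are transcription factor genes with a DNA-binding HMG box. SoxB1 proteins hold early ectoderm in a state that can become neural plate, and act with the Pou factor Pou5f3 and with Nanog when the zygotic genome is first switched on. Of the SoxB1 genes, sox19b is the one loaded into the egg as maternal mRNA, whereas sox3, sox19a and sox2 are transcribed mainly by the embryo itself and then mark ectoderm and neural plate. The SoxC genes sox11a and sox11b are best known from neural progenitors that are beginning to differentiate.

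The members were taken by symbol. They are all probe sets whose single platform gene symbol, or a synonym of it, is sox2, sox3, sox19a, sox19b, sox11a or sox11b. This gave 6 genes of the 8793 genes with a symbol on the array, measured by 15 probe sets, 9 for SoxB1 and 6 for SoxC. Probe sets assigned to the same gene are not replicates of each other. A filter on dim probe sets left 13 of the 15 in the tests, and the 2 left out both belong to sox2.

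Each zebrafish embryo had received 3 nl of morpholino, an antisense oligonucleotide, at 0.3 mM when it had 1 or 2 cells, and embryos were collected at 6 hours post fertilization (hpf), when gastrulation begins. The groups were prmt6 MO embryos sorted by shape as severe (3 arrays), mild (1 array) or normal (1 array), and embryos given the prmt6 cMO control morpholino (3 arrays). The MO is directed at prmt6, which encodes protein arginine methyltransferase 6. A control morpholino was in every control embryo, so no uninjected embryo is part of any comparison. The labels call the control and severe arrays biological replicates without saying whether each came from its own clutch, so the p-values reflect only how these samples vary, which may be technical.

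All levels below are MAS5 signals on the log2 scale, where 1 unit is a doubling, from Affymetrix zebrafish genome arrays hybridised with RNA of whole embryos. The array background was taken as log2 5.10, the 95th percentile of 17 negative control probe sets. The arrays fell into 2 sets along the second principal component (15.8% of the variance), with severe 1, severe 2, control 1 and control 2 on one side and severe 3, the mild array, the normal array and control 3 on the other. The labels name no batch for this split, and severe results are therefore also given with replicates 1 and 2 only. For the mild and normal arrays that setting leaves only controls from the other side of the split. The prmt6 probe set read 11.27 ± 0.16 in severe embryos, 11.13 in mild, 11.22 in normal and 9.70 ± 0.16 in control embryos (SD, n = 3 for severe and control). All 5 prmt6 MO arrays were above the controls at like levels. A morpholino need not lower its target mRNA, so this level does not measure the knockdown.

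The SoxB1 genes went both ways in severe embryos. Both probe sets of the maternal gene sox19b rose, by 3.09-fold and 2.74-fold, while 4 of the 5 tested probe sets of the zygotic genes sox2, sox3 and sox19a fell and the other did not pass the test. Of 6 SoxC probe sets only 1, for sox11b, passed, with a fall of 1.25-fold. In all, 7 of 13 member probe sets passed in limma at an adjusted p under 0.05, 2 higher and 5 lower, where 38.6% of all 9301 tested probe sets passed, 21% higher and 17.6% lower. Severe and control arrays had no overlap for 2 member probe sets that were higher and 6 that were lower, where 29.4% and 23.4% of all tested probe sets separated in these directions. The share passing among the SoxC probe sets (1 of 6) was below that background, and among the SoxB1 probe sets (6 of 7) above it. These probe sets belong to only 2 SoxC and 4 SoxB1 genes and are not independent, so the shares are a description only. With replicates 1 and 2 only, the severe minus control differences for sox19b were 1.53 and 1.37. For the 2 brighter sox3 probe sets they were -1.07 and -1.73, for sox19a -0.43 and for sox2 -4.00. Each was past the threshold, sox19a narrowly (limma adjusted p = 0.0468). In that setting 48.2% of all tested probe sets passed. On the other side of the split there was 1 severe array, and control 3 lay between the sets, which allows no test. In RNA of whole embryos, fewer cells of a type and less RNA per cell cannot be told apart.

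**Figure D1:**
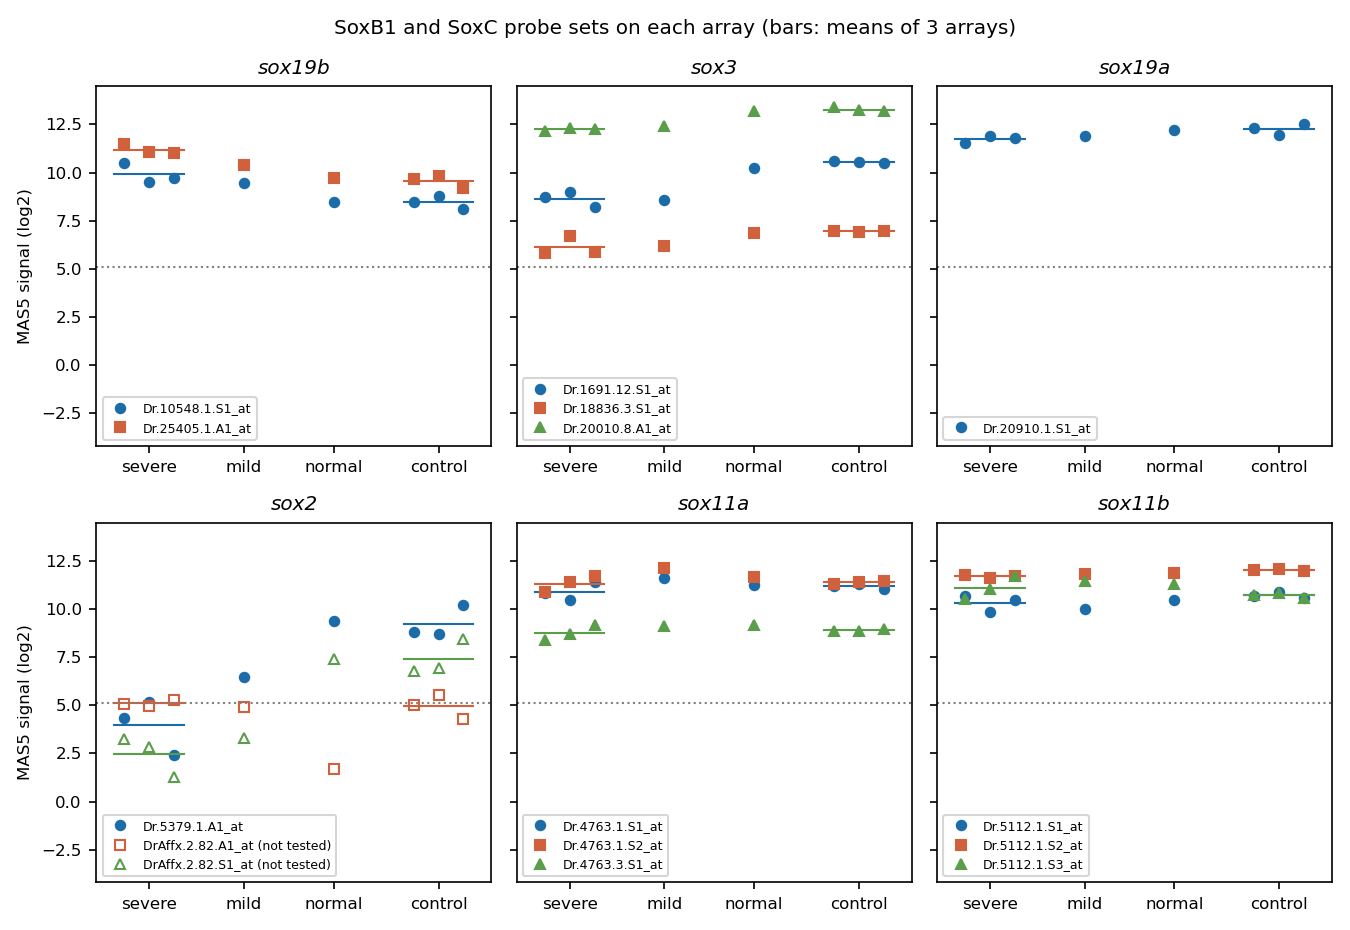
MAS5 signal (log2) of each member probe set on each array, by group, with horizontal bars at the means of the 3 severe and 3 control arrays; open symbols are the 2 sox2 probe sets that were not tested and the dotted line is the array background of 5.10. In both sox19b probe sets the lowest severe point stands above the highest control point, and in the tested sox2 probe set and all 3 sox3 probe sets the order is the opposite.

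The brighter sox19b probe set (Dr.25405.1.A1_at) read 11.51, 11.08 and 11.00 in severe embryos, 10.42 in mild, 9.74 in normal, and 9.68, 9.84 and 9.19 in control embryos. The severe arrays were all above the controls, the mild array lay between the 2 groups, and the normal array lay inside the control range. The severe mean was 11.20 ± 0.27 and the control mean 9.57 ± 0.34 (SD, n = 3 each), a difference of 1.63 (SE 0.20, limma adjusted p = 0.000456).

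The second sox19b probe set (Dr.10548.1.S1_at) read 10.51, 9.50 and 9.72 in severe embryos, 9.48 in mild, 8.48 in normal, and 8.49, 8.78 and 8.11 in control embryos. It gave the same order of groups, with the mild array just under the lowest severe array. Its difference between severe and control embryos was 1.45 (SE 0.28, limma adjusted p = 0.00378). Among all tested probe sets, 97.4% and 95.9% had a lower severe minus control difference than the brighter and the dimmer sox19b probe set.

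In mild embryos the sox19b differences were 0.85 and 1.02 and did not pass (limma adjusted p = 0.0865 and 0.125). Both passed when arrays were centred on their medians (limma adjusted p = 0.0257 and 0.0436). The severe arrays exceeded the normal array by 1.46 and 1.43 (limma adjusted p = 0.0128 and 0.0351). Between neighbours in the order severe, mild, normal, no sox19b difference passed. These were 0.78 and 0.43 for severe minus mild (limma adjusted p = 0.481 and 0.625) and 0.68 and 1.00 for mild minus normal (limma adjusted p = 0.367 and 0.336).

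Among the zygotic genes, sox3, an early and broad marker of ectoderm, has 3 probe sets. The brightest (Dr.20010.8.A1_at) read 12.18, 12.30 and 12.27 in severe embryos, 12.44 in mild, 13.21 in normal, and 13.39, 13.23 and 13.21 in control embryos. The mild array stood beside the severe arrays and the normal array level with the lowest control. The level was 2.04-fold lower in severe than in control embryos (log2 -1.03, SE 0.11, limma adjusted p = 0.000245).

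The probe set Dr.1691.12.S1_at gave a larger difference for sox3. It read 8.75, 8.98 and 8.23 in severe embryos, 8.58 in mild, 10.26 in normal, and 10.62, 10.56 and 10.52 in control embryos. Here the mild array lay within the severe range, and the normal array a little under all 3 controls. It was 3.77-fold lower in severe embryos (log2 -1.91, SE 0.20, limma adjusted p = 0.000216).

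The dimmest sox3 probe set (Dr.18836.3.S1_at) read 5.83, 6.72 and 5.90 in severe embryos, 6.21 in mild, 6.84 in normal, and 6.94, 6.90 and 6.98 in control embryos. All severe arrays were below all controls, and severe 2 was nearest to them. Its difference of -0.79 (SE 0.30) did not pass (limma adjusted p = 0.0635), and it passed in 3 alternatives. These were without severe 2 (-1.07, limma adjusted p = 0.0236), and, with the same difference, the fit with a replicate block and that without an intensity trend (limma adjusted p = 0.0477 and 0.0445). In mild embryos the brightest and second sox3 probe sets fell, by 0.84 and 1.98 on the log2 scale (limma adjusted p = 0.0116 and 0.00456), and the dimmest read -0.73 (limma adjusted p = 0.288). The fall of 0.84 no longer passed when arrays were centred on their medians (-0.62, limma adjusted p = 0.157).

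The severe arrays were below the normal array by 0.96 and 1.61 for the 2 brighter sox3 probe sets (limma adjusted p = 0.00779 and 0.00929). The severe minus mild differences were -0.19 and 0.07 (95% intervals -0.55 to 0.17 and -0.57 to 0.70). The mild minus normal differences were -0.77 and -1.68, neither past the threshold (limma adjusted p = 0.112 and 0.091).

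The paralogue of sox19b, sox19a, is a SoxB1 gene that the embryo itself transcribes from the blastula on. Its probe set (Dr.20910.1.S1_at) read 11.55, 11.89 and 11.81 in severe embryos, 11.92 in mild, 12.23 in normal, and 12.33, 11.98 and 12.54 in control embryos. Severe and control arrays did not overlap, but severe 2 was close to control 2 and the mild array fell between them. The fall was 1.44-fold (log2 -0.53, SE 0.16, limma adjusted p = 0.0314). It no longer passed without control 1, control 3, severe 1 or severe 2 (-0.60 to -0.40, limma adjusted p from 0.0508 to 0.101), nor under median centring (-0.51, limma adjusted p = 0.113) or without an intensity trend (limma adjusted p = 0.0731). The mild difference was -0.36 (limma adjusted p = 0.342) and the severe minus normal difference -0.48 (limma adjusted p = 0.159).

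The neural and pluripotency factor gene sox2 showed the widest spread of the members. The tested probe set (Dr.5379.1.A1_at) read 4.36, 5.15 and 2.42 in severe embryos, 6.48 in mild, 9.40 in normal, and 8.81, 8.71 and 10.20 in control embryos. The mild array stood between the 2 groups, the normal array within the controls, and only 1 of 3 severe arrays was above the array background. The fitted difference was -5.26 (SE 0.67, limma adjusted p = 0.000486), with 0.204% of tested probe sets lower still. With values under the background raised to it, a setting chosen after the data were seen, the difference was -4.12, or 17.4-fold (SE 0.38, limma adjusted p = 9.07e-05), so the size of the fall is uncertain.

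A pair of dimmer sox2 probe sets was designed from 1 and the same clone, and their names differ in the letter that Affymetrix uses for orientation. The one named S1 (DrAffx.2.82.S1_at) read 3.23, 2.82 and 1.30 in severe embryos, 3.29 in mild, 7.38 in normal, and 6.77, 6.94 and 8.46 in control embryos. All severe arrays and the mild array were under the background, and the normal array and all 3 controls above it. Against the control mean the level was thus at least 4.88-fold lower in severe embryos and on the mild array, an estimate that moves with the spread of the 3 controls. In a fit without the filter this probe set passed in both (limma adjusted p = 0.000573 and 0.0255).

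The one named A1 (DrAffx.2.82.A1_at) read 5.09, 4.95 and 5.29 in severe embryos, 4.91 in mild, 1.67 in normal, and 5.03, 5.55 and 4.30 in control embryos. It was above the background on 2 of 8 arrays and gives no measure of sox2.

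For the tested sox2 probe set the mild array differed from control embryos by -2.76 (SE 0.94) and did not pass (limma adjusted p = 0.0868). It passed in 5 alternatives, among them without severe 3 and with dim values raised to the background. In both of these the mild and control values, and so the difference, were unchanged. Only the estimate of spread, which draws on the severe arrays, differed (SE 0.54 with dim values raised). These calls thus add nothing about the mild array itself. The severe minus normal difference was -5.42 (limma adjusted p = 0.00929). Severe minus mild was -2.50 and mild minus normal -2.92, and neither passed (limma adjusted p = 0.481 and 0.248).

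In severe embryos the SoxC differences lay between -0.40 and 0.39. For sox11a, Dr.4763.1.S2_at, the brightest of its 3 probe sets, read 10.90, 11.39 and 11.70 in severe embryos, 12.12 in mild, 11.69 in normal, and 11.31, 11.38 and 11.47 in control embryos. The severe arrays ran from below to above the controls, and the mild array was above all others. Severe 3, mild and normal, which share a side of the array split, read highest. The severe minus control difference was -0.06 (95% interval -0.49 to 0.37, limma adjusted p = 0.828).

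The other 2 sox11a probe sets differed by -0.30 and -0.14 between severe and control embryos (limma adjusted p = 0.302 and 0.619). Dr.4763.1.S1_at passed without severe 3 (-0.56, limma adjusted p = 0.0179) and with replicates 1 and 2 only (-0.63, limma adjusted p = 0.00621). Leaving out 1 array at a time gave -0.56 to -0.09 for that probe set and -0.35 to 0.02 for the third, and -0.24 to 0.15 for the brightest. No single direction can be given for sox11a in severe embryos. In mild embryos the 3 differences were 0.74, 0.43 and 0.24, and none passed (limma adjusted p = 0.104, 0.40 and 0.643). The first of these passed in 4 alternatives, among them without severe 1 and without severe 3. Leaving out a severe array changes only the estimate of spread, not the mild and control values.

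The 3 sox11b probe sets disagreed with each other. Dr.5112.1.S2_at, the brightest, read 11.79, 11.64 and 11.74 in severe embryos, 11.84 in mild, 11.89 in normal, and 12.05, 12.10 and 12.00 in control embryos. Its difference of -0.33 (SE 0.11, limma adjusted p = 0.0412) was small, rested on tightly grouped arrays and was no longer past the threshold in 9 of 17 alternatives, among them the 5 that left out any control, severe 1 or severe 2 (limma adjusted p from 0.0538 to 0.157).

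Dr.5112.1.S3_at pointed the other way, at 10.54, 11.07 and 11.70 in severe embryos, 11.48 in mild, 11.33 in normal, and 10.71, 10.83 and 10.60 in control embryos. The severe arrays overlapped the controls, and the mild and normal arrays were above all of them. The difference was 0.39 (limma adjusted p = 0.251), and 0.67 without severe 1, where it passed (limma adjusted p = 0.0366). Dr.5112.1.S1_at read -0.40 (limma adjusted p = 0.176). No single direction can be given for sox11b.

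**Figure D2:**
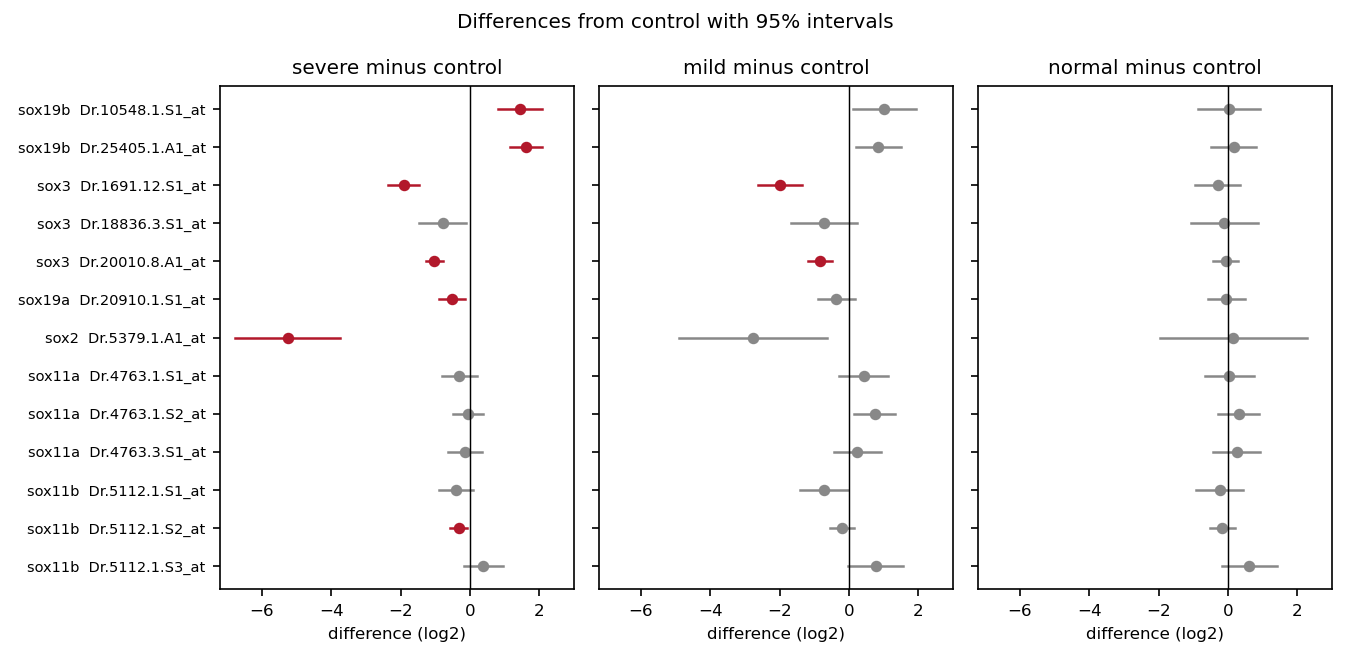
Differences from control (log2) for the 13 tested probe sets in severe (left), mild (middle) and normal embryos (right), with 95% intervals from limma; red marks an adjusted p under 0.05. In severe embryos 7 probe sets passed, in mild embryos 2, both of sox3, and in normal embryos 0.

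Over all members, the mild array had 2 of 13 probe sets past the threshold, both lower and both of sox3, against 13.5% of all tested probe sets (4.69% higher and 8.78% lower). For the lone mild array the fit assumes the spread of the groups with 3 arrays. The number of calls was 5 without severe 3, where 20.4% of all tested probe sets passed, and 6 when only mild and control arrays were fitted, where 17.1% passed. It was 6 with replicates 1 and 2 only, where 32.7% passed. The mild array was above all controls for 6 of the 13 and below all for 7, where 39% and 36.9% of tested probe sets were. The median over the 5 tested probe sets of sox2, sox3 and sox19a was -0.84 in mild embryos, beside 0.03 over all tested probe sets, and -1.03 in severe embryos, beside 0.11. The 6 SoxC differences in mild embryos ran from -0.73 to 0.77 (both sox11b).

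In normal embryos 0 of 13 passed in limma, and 0 had an unadjusted p under 0.05. Among all tested probe sets 0.043% passed, and 11.8% with replicates 1 and 2 only, where the members still had 0 calls. The normal array was above all controls for 3 of the 13 and below all for 4, where 29% and 32.9% of tested probe sets were. The differences from control lay between -0.30 (sox3) and 0.62 (sox11b, Dr.5112.1.S3_at). The interval for sox2, 0.16 with 95% limits of -1.97 and 2.29, was too wide to exclude a several-fold change either way. The 3 comparisons share the same control arrays.

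The contrasts between subtypes were added after the data were seen. Severe minus normal had 5 of 13 members past the threshold, 2 higher (both of sox19b) and 3 lower (2 of sox3 and 1 of sox2), against 21.7% of all tested probe sets (11.3% higher and 10.4% lower). Severe minus mild had 0 in limma (4 of 13 at an unadjusted p under 0.05), where 0 of 9301 probe sets passed. Mild minus normal also had 0 (3 of 13 at an unadjusted p under 0.05), where 0.0108% passed.

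**Figure D3:**
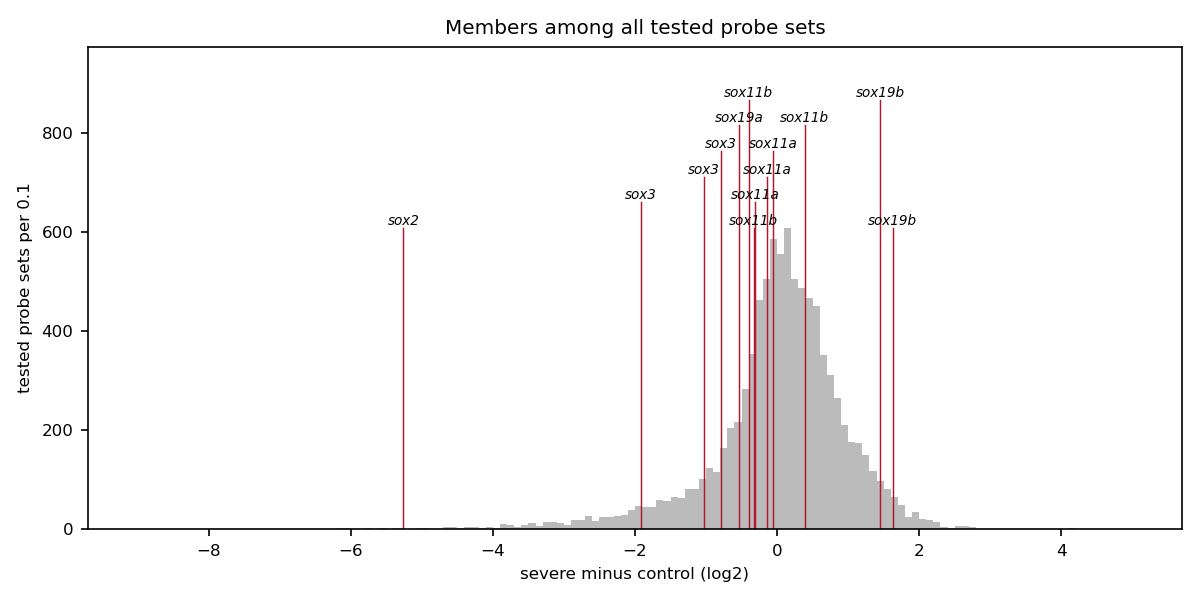
Severe minus control difference (log2) of all 9301 tested probe sets in bins of 0.1 (grey), with red lines at the 13 member probe sets. Both sox19b lines stand in the upper tail at 1.45 and 1.63, sox2 stands at -5.26 in the lower tail, and the SoxC lines lie near the centre.

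How the array scaling bears on these differences was looked at in 2 ways. Scaling on 18 spiked hybridisation control probe sets in place of the whole array moved the median severe minus control difference of all tested probe sets to -0.17, beside 0.11 as deposited. The means of these controls were 11.39, 11.23 and 11.13 on severe 3, mild and normal, and 10.69 to 10.98 on the other arrays. This scaling therefore also carries the array split into the differences. With that scaling 474 probe sets were higher and 1903 lower in severe embryos, in place of 1951 and 1636. The sox19b differences were then 1.34 and 1.17 (limma adjusted p = 0.00806 and 0.0434), sox19a read -0.81, the 2 brighter sox3 probe sets -1.31 and -2.20, and sox2 -5.54. In mild embryos the split was 30 higher and 967 lower with that scaling and 718 and 575 with median centring, in place of 436 and 817. The mild sox19b differences were 0.40 and 0.58 on the hybridisation controls (limma adjusted p = 0.614 and 0.554).

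The other way was to subtract, within each array, another member's log2 value from that of the brighter sox19b probe set. This removes any scaling of the array as a whole, but it cannot show the direction of either gene alone. Levels of different probe sets cannot be compared, so only the change of this difference between groups was read. Against the brightest sox3 probe set it was -0.67, -1.22 and -1.27 in severe embryos, -2.02 in mild, -3.47 in normal, and -3.70, -3.39 and -4.02 in control embryos. The lowest severe value was above the highest control value, the means differed by 2.65, and the mild and normal arrays stood 1.68 and 0.23 above the control mean.

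Against sox19a the difference was -0.04, -0.81 and -0.81 in severe embryos, -1.50 in mild, -2.49 in normal, and -2.64, -2.14 and -3.35 in control embryos. The 2 groups again did not overlap, and the change was 2.16. In all 10 pairs with a tested sox3, sox19a, sox11a or sox11b probe set the severe arrays were above the controls, by 1.24 (sox11b, Dr.5112.1.S3_at) to 3.54 (sox3, Dr.1691.12.S1_at). Against the tested sox2 probe set, of which 1 of 3 severe arrays was above the background, the change was 6.89, and 5.74 with dim values raised to the background. Each pair gave p = 0.1 in a two-sided exact permutation test (0.1 when adjusted over 13 pairs, which include the 2 untested sox2 probe sets), the smallest p that 3 arrays against 3 allow. All pairs share 1 sox19b probe set and are not independent. That probe set alone rose by 1.63 without overlap, so a partner that did not change can also separate the groups. Against sox11a (Dr.4763.1.S2_at), whose own difference was -0.06, the change was 1.69. The number of pairs without overlap thus in part restates the rise of sox19b. The sizes of the changes restate the severe minus control differences given above.

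**Figure D4:**
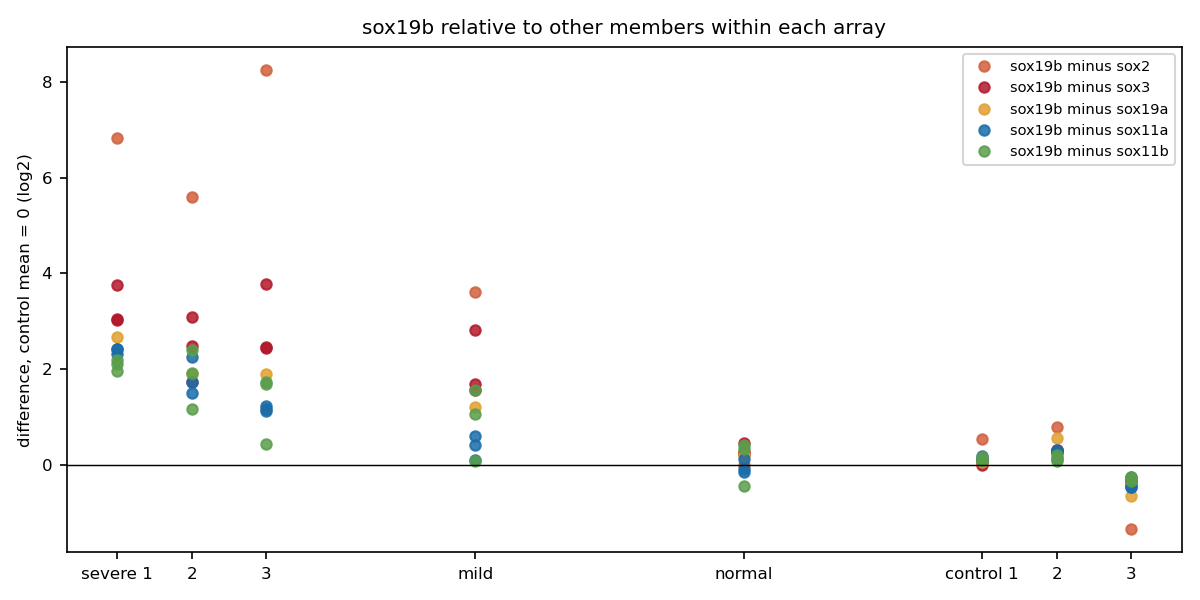
Log2 signal of sox19b (Dr.25405.1.A1_at) minus that of each of the 11 tested probe sets of the other genes on the same array, with the control mean set to 0, for each of the 8 arrays. All points of the severe arrays lie above those of the controls for the same pair, the mild array lies between 0.08 and 3.61, and the normal array between -0.45 and 0.47.

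The genes most like each member were ranked by Pearson correlation of log2 values over the 8 arrays, among 5794 genes with a symbol. This is a description only, since the arrays fall into few groups and many genes follow the same split. Nearest to sox19b were parpbp, which encodes a PARP1-binding protein (r = 0.995), the transcription factor gene mef2d (0.993) and pdcd7 (0.993). Of these, parpbp read 9.59 ± 0.12 in severe embryos and 8.20 ± 0.27 in control embryos (SD, n = 3 each).

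Nearest to sox3 were relt, a gene of the tumour necrosis factor receptor family (r = 0.994), the calponin gene cnn2 (0.992) and the Notch ligand gene dlc (0.989). Nearest to sox2 were the claudin gene cldn8.2 (r = 0.992), ptgdsb.1 (0.990) and crtap (0.987). For cldn8.2 the levels were 5.84 ± 1.21 in severe, 7.29 in mild, 9.85 in normal and 9.71 ± 0.30 in control embryos (SD, n = 3 for severe and control).

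For sox19a the nearest were lonrf4 (r = 0.981), the Wnt receptor gene fzd10 (0.964) and tcta (0.962). For sox11a they were pmaip1 (r = 0.977), a pro-apoptotic gene, the actin-nucleating Arp2/3 subunit gene arpc4 (0.971) and the clathrin adaptor gene ap1s1 (0.966). For sox11b they were noc2l (r = 0.975), gnptab (0.972) and the histone demethylase gene kdm6ba (0.971).

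Other Sox genes gave little to compare with. Of 20 genes listed, 12 had a probe set and 2 passed the filter. The others, among them sox1a, sox4a and sox4b, were too dim to test. The endoderm regulator sox32, which also acts in the yolk syncytial layer, fell to 8.82 ± 0.72 in severe embryos, against 11.57 ± 0.53 in control embryos (SD, n = 3 each, log2 -2.75, limma adjusted p = 0.000587). The level of sox9b rose by 0.94 (limma adjusted p = 0.0164), while its second probe set read 0.25 (limma adjusted p = 0.538). Neither gene passed in mild embryos.

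Partner factors and other early regulators went both ways. Of 16 tested genes of zygotic activation and pluripotency, 3 rose and 5 fell in severe embryos, with a median of -0.14 beside 0.14 over all 6192 tested genes. Over all tested probe sets 21% rose and 17.6% fell. The ventral repressor gene ved fell by 3.03 and the T-box gene tbx16 by 1.74 on the log2 scale (limma adjusted p = 8.72e-05 and 9.5e-05), while the maternal and zygotic T-box gene eomesa rose by 1.32 and klf2a by 1.73 (limma adjusted p = 0.00145 and 0.00261). The 2 factors known to act with SoxB1 proteins were named for that role after their values were seen. Of these, nanog read 13.98 ± 0.11 in severe and 13.21 ± 0.38 in control embryos (log2 0.77, limma adjusted p = 0.0104), and pou5f3 13.63 ± 0.13 and 13.84 ± 0.09 in the same groups (SD, n = 3 each, log2 -0.21, limma adjusted p = 0.205).

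A list of ectoderm and patterning genes, some of them reported downstream of SoxB1 factors in zebrafish, also split. Of 18 tested, 3 rose and 6 fell in severe embryos, with a median of 0.07. Over all tested probe sets 21% rose and 17.6% fell in severe embryos, and 4.69% and 8.78% in mild embryos. The eye-field gene rx3 rose by 2.65 (limma adjusted p = 0.000148). Its control level, 5.39 ± 0.14 (SD, n = 3), was close to the array background of 5.10, so the size of the rise is uncertain. The homeobox gene cdx4 read 4.93 ± 0.28 in severe and 9.37 ± 1.19 in control embryos (SD, n = 3 each, limma adjusted p = 0.000329), with 1 of 3 severe arrays above the background. The neural plate gene zic2a fell by 1.41 and the BMP ligand gene bmp7a by 1.45 (limma adjusted p = 0.000445 and 0.00194). In mild embryos 2 of the 18 rose and 1 fell.

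Most tested genes of a list of maternal transcripts other than sox19b were higher as well. The arrays do not tell maternal mRNA from mRNA made by the embryo, for sox19b or for these genes. Of 24 tested genes of a list that holds no member, 17 rose and 3 fell in severe embryos, with a median of 1.03, and 8 rose and 1 fell in mild embryos, with a median of 0.72. The germ-cell RNA-binding gene dazl rose by 2.51, dnd1 by 1.62 and the oocyte claudin gene cldnd by 1.67, while pou2f1b fell by 2.25 (limma adjusted p = 6.81e-05, 9.48e-05, 0.000152 and 0.000149). The severe minus control changes of sox19b, 1.63 and 1.45, were thus above the median of that list. The severe contrast called 21% of all tested probe sets higher and 17.6% lower. For mild embryos the shares given with the ectoderm list apply. All 6192 tested genes had medians of 0.14 (severe) and 0.08 (mild). The maternal list was not repeated with scaling on the hybridisation controls. None of the 24 passed in normal embryos.

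Markers of the outer and yolk layers moved with the same groups. Of 16 tested enveloping layer markers, 14 fell and 0 rose in severe embryos, with medians per array of -4.48 to -2.98 in severe, -3.55 in mild, -0.09 in normal and -0.18 to 0.35 in control embryos. Their summed linear signal was 6326 to 12840 in severe and 49667 to 68472 in control embryos. Of 9 tested yolk syncytial layer markers, 8 fell and 1 rose in severe embryos. Their summed signals were 5841 to 11796 in severe and 19701 to 31076 in control embryos. Beside the counts of both lists, 17.6% of all tested probe sets fell and 21% rose in severe embryos. The yolk syncytial layer marker that rose was mxtx2, by 1.71 in severe embryos (limma adjusted p = 0.000708). On the mild and normal arrays it stood 2.03 and 1.58 above the control mean. The markers anxa1b and anxa1c of the first list and apoc2 of the second did not reach the array background on any severe array. The part of these layers in the sox differences was not tested.

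**Figure D5:**
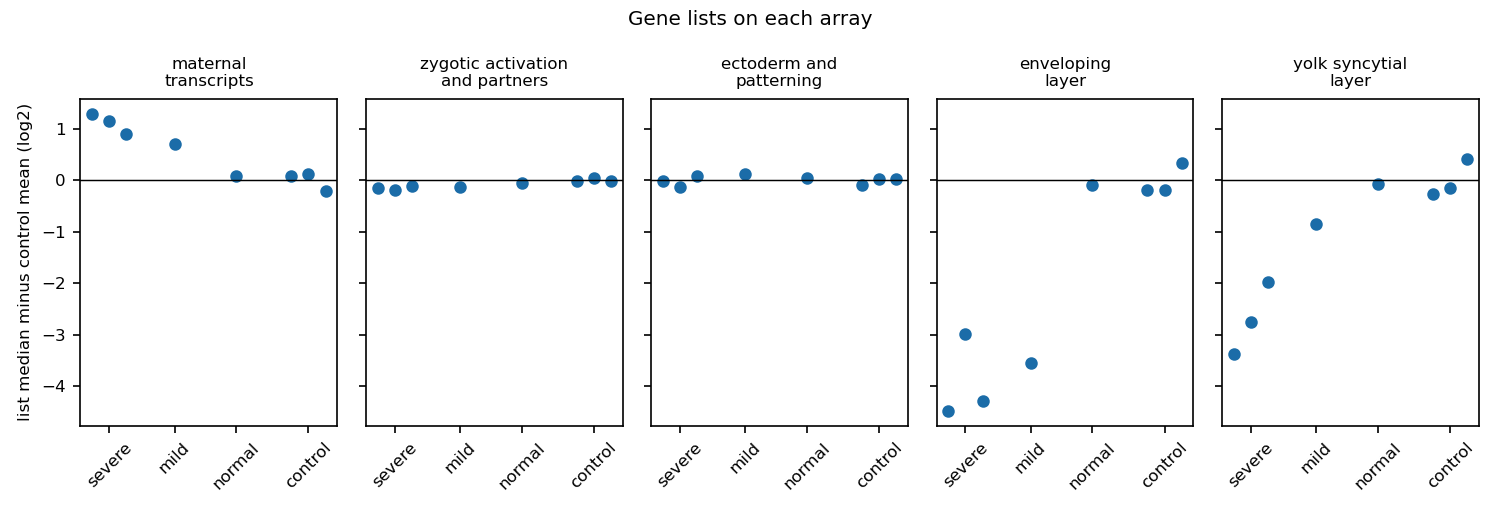
Median log2 difference from the control mean over the tested genes of 5 lists, for each array, by group. Maternal transcripts stand at 0.90 to 1.30 in severe and 0.72 in mild embryos, the enveloping and yolk syncytial layers lie below 0 in both, and the other 2 lists stay near 0 on every array.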

How the data were processed

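The deposited table holds 1 log2 value per probe set and array for 8 arrays. The authors made these log2 values with MAS5, as named without a version in the submitters' processing notes. In the values themselves each array had a mean linear signal of 500 after trimming the extremes, and a floor at 0. Symbols came from the platform annotation, updated through Entrez numbers. No detection calls, genome or sequences were used here, and the number of arrays limits the precision.

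The 115 AFFX probe sets were left out, and so were probe sets with a mean under log2 5.585, the 40th percentile. Group means of all 8 arrays were fitted with limma 3.58.1 (lmFit and trended eBayes, 4 residual degrees of freedom; R 4.3.3) and p-values adjusted by Benjamini-Hochberg over 9301 probe sets at 0.05. A gene in a list was represented by its brightest tested probe set. The members, lists and tests were chosen with earlier results of these data known. Named genes were all members, the 3 most alike per member, and up to 4 per list with the smallest p. Further genes were named after their values were seen. These were nanog and pou5f3 for their role, mxtx2 as the yolk syncytial layer marker that rose, and anxa1c as a marker under the background. Within-array differences used an exact permutation test. The fit was tested on simulated data for severe minus control only. That simulation had independent noise and no array split, and it did not cover the mild and normal contrasts. Figures were drawn with matplotlib 3.10.9. The alternatives are given in the closing section.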

Additional observations from a re-analysis of the deposited data

How the results depend on the processing

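The severe count of 7 member probe sets past the threshold lay between 5 and 8 in the 17 alternatives, and between 5 and 8 when 1 replicate at a time was left out. In each of them both sox19b probe sets were higher, and 2 sox3 probe sets and the tested sox2 probe set, where the filter kept it, were lower. The filter at the 60th percentile removed sox2 and 1 sox3 probe set. The calls of sox19a and of the 1 sox11b probe set were lost in 6 and 9 alternatives. The mild count of 2 was 6 when only mild and control arrays were fitted and 6 with replicates 1 and 2 only, and lay between 2 and 5 when 1 replicate was left out. The cause was not tested. The normal count was 0 in each alternative. With a replicate block, 8 member probe sets passed in severe embryos and 4413 of 9301 in all. Deviations of same-numbered severe and control arrays correlated at 0.337, -0.0723 and 0.338. Severe 1 correlated best with control 2 (0.385), and severe 3 with control 3. Whether the numbers pair the samples is not settled by these values. Counts over all probe sets that moved by over 1.5 times were 2377 against 3587 for severe on the hybridisation controls, and, for mild, 670 without control 1, 615 without control 2, 1893 without severe 3 and 3037 with replicates 1 and 2 only, against 1253. For normal they were 1094 with replicates 1 and 2 only, 14 without severe 3, and 0 to 7 in the other alternatives, against 4. No alternative turned the direction of a call. Results that missed the threshold both ways were not compared for sign. Dim signal limits sox2, whose severe arrays lie near or under the background.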
